A study of Mus musculus with 9 samples.

Results

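The 36 mouse genes described here mark white and red blood cells. They were taken by name from a table of 55291 genes measured in sorted olfactory sensory neurons, with earlier results of these data known. They fell into 6 groups by the cell or function they mark: 5 genes of leukocytes in general, 4 genes of MHC class II antigen presentation, 12 macrophage genes, 8 neutrophil genes, 3 lymphocyte genes and 4 globin genes of red cells. All 36 were found in the table, and 30 had enough reads to be tested. The study measured polyadenylated RNA of mature olfactory sensory neurons, the odorant-detecting cells of the nose, from mice in which a fluorescent protein is translated from the transcript of 1 odorant receptor gene. The groups were Olfr1507 (genotype Olfr1507-IRES-GFP), Olfr73 (Olfr73-IRES-GFP) and Olfr160 (Olfr160-IRES-mCherry), with 3 libraries each and 9 in all. The main olfactory epithelium was dissociated with papain, and cells with a strong reporter signal and little of the dead-cell stain DAPI were collected by flow cytometry, so the gate selected cells by the reporter. It held no step aimed at blood cells. The labels give no strain, age or sex, and nothing in them ties the 3 libraries of a group to different animals. The p-values below therefore cover the spread among these libraries alone, and that spread may be technical.

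Blood cells are found in and beneath the olfactory epithelium, in vessels and as resident macrophages. Macrophages engulf dying neurons and are marked by the growth factor receptor Csf1r and by complement C1q. Neutrophils fill their granules in a fixed order, with the primary-granule enzymes Mpo, Elane and Prtn3 transcribed in immature cells of the bone marrow and the proteins of later granules, such as Ngp, Camp and Ltf, transcribed afterwards. Red cells carry haemoglobin, built from alpha-globin (Hba-a1, Hba-a2) and beta-globin (Hbb-bs, Hbb-bt) chains. In bulk libraries such as these, fewer cells of a type and less RNA per cell cannot be told apart.

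Libraries held 17212807 to 36230606 expected counts, and 3 counts, set as the floor for genes at 0, corresponded to 0.099 to 0.167 CPM, that is, counts scaled to the library's effective size. The olfactory marker protein Omp, the defining gene of mature olfactory neurons, stood at 23940 ± 1402 CPM in Olfr1507, 16490 ± 1143 in Olfr73 and 10930 ± 2468 in Olfr160 (mean ± SD, n = 3). Of all odorant receptor counts, the tagged receptor took 85.1% to 94.7% in the Olfr1507 libraries, 22.8% to 32.8% in the Olfr73 libraries and 2.08% to 10.1% in the Olfr160 libraries. Most odorant receptor counts of the Olfr73 and Olfr160 libraries thus came from receptors other than the tagged one. The summed counts of 20 sustentacular and gland cell markers, the supporting epithelium of the nose, took 0.0340% to 0.0672% of each library in Olfr1507, 0.488% to 0.883% in Olfr73 and 2.80% to 5.81% in Olfr160, and none of the 20 was at 0 in any group. Of these 20 genes, edgeR called 20 lower in Olfr1507 than in Olfr160, 18 lower in Olfr1507 than in Olfr73 and 16 lower in Olfr73 than in Olfr160, with 0 higher in each. Among 18 markers of glia, connective tissue and vessels, 15 were tested, of which 15, 11 and 3 were lower in the same comparisons. The 18 took 0.00167% to 0.00216% of counts in Olfr1507, 0.0137% to 0.0348% in Olfr73 and 0.0621% to 0.1135% in Olfr160, with 2, 1 and 0 of the 18 at 0 counts in Olfr1507, Olfr73 and Olfr160. The blood cell results below move with these markers of other cells, and the part of those cells in the results was not tested.

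All 36 blood cell genes together took 0.00122%, 0.00188% and 0.00151% of the counts of Olfr1507 libraries 1, 2 and 3, 0.0381%, 0.0332% and 0.0144% of the Olfr73 libraries, and 0.164%, 0.192% and 0.0581% of the Olfr160 libraries. The groups did not overlap in this share, with Olfr1507 lowest and Olfr160 highest. In edgeR's quasi-likelihood test at a Benjamini-Hochberg adjusted p of at most 0.05, 30 of the 30 tested genes were lower in Olfr1507 than in Olfr160 and 0 were higher. The background was 27.7% of all 16399 tested genes lower and 20.7% higher. Between Olfr1507 and Olfr73, 20 of the 30 were lower in Olfr1507 and 0 higher, against 19.9% and 14.5% of all genes. Between Olfr73 and Olfr160, 15 of the 30 were lower in Olfr73 and 0 higher, against 10.5% and 7.45% of all genes. The same shares are the background for the calls of each further list of genes. Statements below that groups did not overlap are given without the share of all genes that separate so, and are a description. The comparisons share libraries pairwise and are not independent of each other. Because the genes were chosen with earlier results of these data known, their excess over the background is a description and not a test.

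The median log2 fold change of the 30 tested genes was -6.37 between Olfr1507 and Olfr160, beside -0.138 for all tested genes, -4.12 between Olfr1507 and Olfr73, beside -0.154, and -2.25 between Olfr73 and Olfr160, beside -0.012. Fitted values of genes at 0 counts have no fixed size. With such genes set at their lower bound the first pair of medians became -5.95 and -4.04. The filter on low counts asked for 0.475 CPM in at least 3 libraries. Of the 30 genes, 10 reached it in fewer than 3 of the 6 Olfr1507 and Olfr73 libraries. They were C1qa, Fcer1g, Mpo, Prtn3, S100a8, S100a9, Ngp, Camp, Cd79a and Cd79b. These 10 passed with the help of the Olfr160 libraries, so their calls against Olfr160 are a description. The 30 calls between Olfr1507 and Olfr160 include all 10, and the 15 between Olfr73 and Olfr160 include Mpo and Prtn3. Only 6 of the 30 genes reached the filter in all 3 Olfr1507 libraries. The others passed with the help of Olfr73 or Olfr160 libraries, so their calls in comparisons with Olfr1507 are a description too. The same limits hold for the genes of the further lists below. The call counts rested in part on single libraries. Without Olfr1507 library 2, 13 genes were called between Olfr1507 and Olfr73. For Olfr73 over Olfr160, 8 were called without Olfr73 library 2, 9 without Olfr160 library 1 and 6 without Olfr160 library 2.

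**Figure D1:**
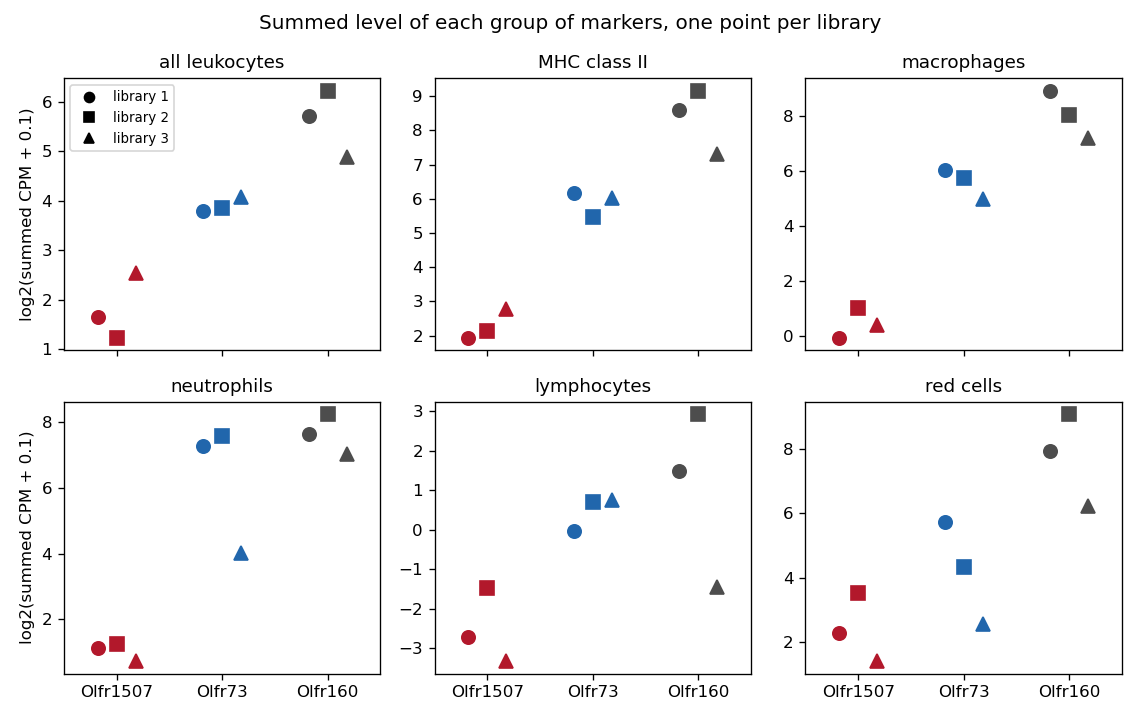
Summed level of each of the 6 groups of genes, 1 point per library (circle, library 1; square, library 2; triangle, library 3), as log2 of summed normalised CPM plus 0.1, with Olfr1507, Olfr73 and Olfr160 from left to right. Olfr1507 libraries lie below the other groups in 5 panels, in the lymphocyte panel by little, with Olfr1507 library 2 at 0.264 CPM and Olfr160 library 3 at 0.267 CPM; in the red cell panel Olfr73 library 3, at 5.87 CPM, lies within the Olfr1507 range of 2.57 to 11.4 CPM.

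Most macrophage genes were at or near the detection floor in the Olfr1507 libraries. Csf1r, the receptor that macrophages need for survival, had 0 counts in each of the 3 Olfr1507 libraries, 126, 180 and 81.5 counts in the Olfr73 libraries and 571, 761 and 377 counts in the Olfr160 libraries. The 3 groups were fully separate. Against the floor of 3 counts over the group, Csf1r was at least 132-fold lower in Olfr1507 than in Olfr73 and at least 559-fold lower than in Olfr160 (edgeR adjusted p 0.000182 and 3.39e-05). Between Olfr73 and Olfr160 its log2 fold change was -2.07 ± 0.37 (SE, edgeR adjusted p 0.0122), a call lost without Olfr160 library 2 and kept under each other alternative.

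Fcrls, an Fc receptor-like protein of microglia and other resident macrophages, had 0 counts in each Olfr1507 library, 28, 51 and 95 in the Olfr73 libraries and 138, 226 and 139 in the Olfr160 libraries. It was at least 59.1-fold lower in Olfr1507 than in Olfr73 and at least 165-fold lower than in Olfr160 (edgeR adjusted p 0.000737 and 0.000185). Olfr73 lay below Olfr160 in every library, but the log2 fold change of -1.45 ± 0.53 did not pass the test (edgeR adjusted p 0.104). The fractalkine receptor Cx3cr1, through which macrophages sense a chemokine bound to other cells, had 1, 0 and 0 counts in the Olfr1507 libraries, 13, 22 and 50 in the Olfr73 libraries and 210, 369 and 206 in the Olfr160 libraries. The groups did not overlap. The pooled ratio showed Cx3cr1 86.6-fold lower in Olfr1507 than in Olfr73 (95% exact counting interval 15.1 to 3460) and 770-fold lower than in Olfr160 (138 to 30500). Its log2 fold change of -3.12 ± 0.62 between Olfr73 and Olfr160 passed the test (edgeR adjusted p 0.0113) and was lost without Olfr160 library 2.

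The complement C1q complex, which tags cell debris for uptake, is built from the products of 3 neighbouring genes on chromosome 4, and these genes differed in level, with means over the 9 libraries of 6.60 TPM for C1qa, 11.9 TPM for C1qb and 0.0922 TPM for C1qc. C1qa had 1, 2 and 0 counts in the Olfr1507 libraries, 32, 8 and 61 in the Olfr73 libraries and 119, 148 and 76 in the Olfr160 libraries. C1qb had 5, 0 and 2 counts in the Olfr1507 libraries, 63, 16 and 49 in the Olfr73 libraries and 259, 320 and 163 in the Olfr160 libraries. C1qc had 0 counts in all Olfr1507 libraries, 1, 0 and 0 in the Olfr73 libraries and 3, 1 and 1 in the Olfr160 libraries, and it was not tested. For C1qa and C1qb the groups did not overlap and library 2 was the lowest of Olfr73, while C1qc was at or under the floor everywhere. C1qb had a log2 fold change of -6.50 ± 0.95 between Olfr1507 and Olfr160 (edgeR adjusted p 0.0006), -4.01 ± 0.90 between Olfr1507 and Olfr73 (0.0087) and -2.49 ± 0.73 between Olfr73 and Olfr160 (0.0454). The last call was lost without any single one of 7 libraries, Olfr1507 library 3 and all of the Olfr73 and Olfr160 libraries.

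Lyz2, the secreted lysozyme of macrophages and neutrophils, was the most abundant macrophage gene by mean TPM. It stood at 0.486, 1.75 and 0.838 CPM in the Olfr1507 libraries, 51.1, 34.7 and 11.6 CPM in the Olfr73 libraries and 407.8, 171.5 and 98.3 CPM in the Olfr160 libraries. The groups did not overlap, although Lyz2 spanned a wide range within both Olfr73 and Olfr160. Library 1 was the highest in both. The log2 fold change was -7.68 ± 0.84 between Olfr1507 and Olfr160, -4.88 ± 0.78 between Olfr1507 and Olfr73 and -2.80 ± 0.64 between Olfr73 and Olfr160 (edgeR adjusted p 0.00013, 0.00181 and 0.0186). The last was lost without Olfr73 library 2 and without Olfr160 library 1. Of the Lyz2 transcript's 31-base words, 32.8% also occur in the neighbouring paralog Lyz1, which had 0 to 9 counts in a library.

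Since Lyz2 made up 76.1%, 65.0% and 76.0% of the summed CPM of the macrophage genes in Olfr1507, Olfr73 and Olfr160, the other 11 genes were also summed without it. Their sum was 0.378, 0.198 and 0.391 CPM in the Olfr1507 libraries, 14.1, 18.5 and 19.9 CPM in the Olfr73 libraries and 74.4, 91.8 and 47.9 CPM in the Olfr160 libraries. The groups stayed apart, and without Lyz2 the Olfr73 libraries lay close together. The phagosome protein Cd68 had a log2 fold change of -5.67 ± 0.87 for Olfr1507 over Olfr160 and -4.17 ± 0.83 for Olfr1507 over Olfr73 (edgeR adjusted p 0.000773 and 0.0052), and its -1.51 ± 0.68 for Olfr73 over Olfr160 did not pass the test (0.153). Itgam, the alpha chain of an integrin shared by macrophages and neutrophils, had 0 counts in each Olfr1507 library, 13, 82 and 44 in the Olfr73 libraries and 72, 225 and 49 in the Olfr160 libraries. It was at least 47.2-fold lower in Olfr1507 than in Olfr73 and at least 113-fold lower than in Olfr160. Olfr73 and Olfr160 overlapped in Itgam. Of its 31-base words 67.2% recur in the gene model Gm49368, which had 0 counts throughout.

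The signalling adaptors of myeloid cells had few counts. Fcer1g, the Fc receptor gamma chain, had 0, 1 and 0 counts in the Olfr1507 libraries, 4, 5 and 4 in the Olfr73 libraries and 26, 37 and 12 in the Olfr160 libraries. Its call for Olfr1507 over Olfr73 (edgeR adjusted p 0.0376) was lost under 12 of 20 alternatives. Tyrobp, another such adaptor, had 0, 0 and 1 counts in the Olfr1507 libraries, 3, 2 and 9 in the Olfr73 libraries and 18, 38 and 2 in the Olfr160 libraries. The calcium-binding protein Aif1 had 0, 1 and 1 counts in the Olfr1507 libraries, 0, 0 and 4 in the Olfr73 libraries and 15, 24 and 5 in the Olfr160 libraries. Both were too low to be tested. In all, 9 of 9 tested macrophage genes were lower in Olfr1507 than in Olfr160, 9 of 9 lower in Olfr1507 than in Olfr73 and 4 of 9 (Csf1r, C1qb, Lyz2 and Cx3cr1) lower in Olfr73 than in Olfr160. None of these genes reached the low-count filter in all 3 Olfr1507 libraries, so their calls in comparisons with Olfr1507 are a description.

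**Figure D2:**
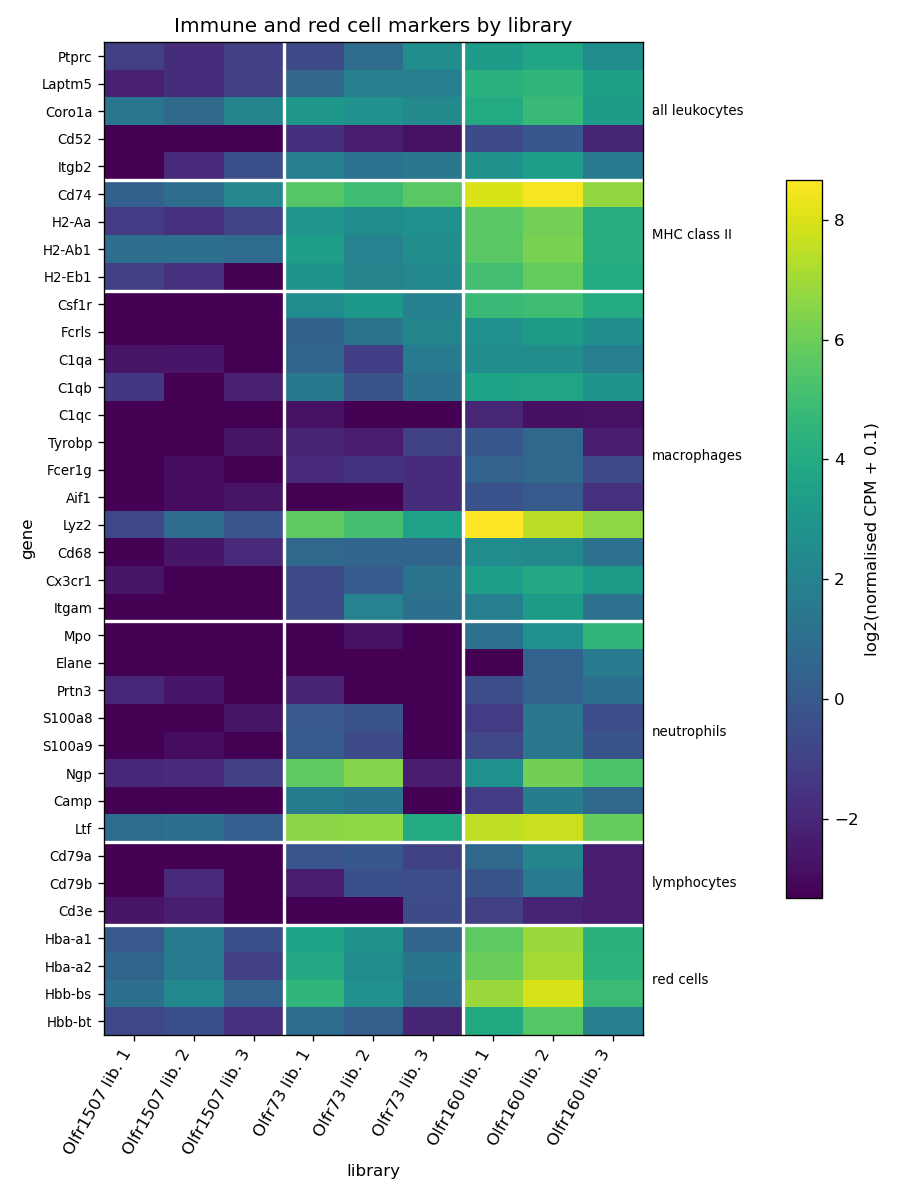
Level of each of the 36 genes, 1 line per gene grouped by the cells they mark, in each library, 1 column per library with Olfr1507, Olfr73 and Olfr160 from left to right, as log2 of normalised CPM plus 0.1; the darkest shade is 0 counts. Olfr160 library 2 is the highest of its group for 29 of the 36 genes, and Mpo, Elane and Prtn3 are the genes for which Olfr160 library 3 is highest.

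The genes of MHC class II, with which dendritic cells, macrophages and B cells present peptides to T cells, gave the same order of groups with no overlap. Cd74, the invariant chain that guides class II molecules to the endosome, stood at 1.19, 1.85 and 4.52 CPM in the Olfr1507 libraries, 45.6, 30.9 and 47.8 CPM in the Olfr73 libraries and 252.6, 366.1 and 105.0 CPM in the Olfr160 libraries. Its log2 fold change was -6.61 ± 0.61 between Olfr1507 and Olfr160, -4.07 ± 0.56 between Olfr1507 and Olfr73 and -2.54 ± 0.49 between Olfr73 and Olfr160 (edgeR adjusted p 5.11e-05, 0.000874 and 0.0101). H2-Aa, the alpha chain of the I-A molecule, stood at 0.324, 0.231 and 0.447 CPM in the Olfr1507 libraries, 7.75, 5.38 and 6.48 CPM in the Olfr73 libraries and 48.3, 72.1 and 17.6 CPM in the Olfr160 libraries. For both genes the groups were fully separate, and Olfr160 library 3 was the lowest of its group.

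The beta chains H2-Ab1 and H2-Eb1 followed the same pattern, and all 4 class II genes passed the test in all 3 comparisons. The H2-Eb1 call between Olfr73 and Olfr160 was lost without Olfr160 library 2. Their log2 fold changes between Olfr73 and Olfr160 lay close together, at -2.54 to -2.83. Those for Olfr1507 over Olfr73 lay farther apart: H2-Ab1, at 1.83, 1.98 and 1.73 CPM in the Olfr1507 libraries and 10.5, 3.84 and 5.87 CPM in the Olfr73 libraries, had a log2 fold change of -1.86 ± 0.53, and its partner chain H2-Aa one of -4.32 ± 0.57 (edgeR adjusted p 0.0248 and 0.000678). The H2-Ab1 call was lost without any single Olfr1507 library and without Olfr73 library 1. H2-DMa and H2-DMb1, the 2 most abundant genes of a list of 12 further antigen-presentation and dendritic cell genes, encode the molecule that loads peptides onto class II. They were lower in Olfr1507 than in Olfr160 (log2 fold changes -1.06 ± 0.25 and -1.82 ± 0.27, edgeR adjusted p 0.00686 and 0.000609) and than in Olfr73 (-1.12 ± 0.25 and -1.58 ± 0.27, 0.00829 and 0.00231). Between Olfr73 and Olfr160 neither passed the test, at 0.06 ± 0.24 and -0.24 ± 0.26 (0.899 and 0.534).

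Neutrophil genes did not move as 1 block. The primary-granule genes Mpo, Elane and Prtn3 and the later genes Ngp, Camp, S100a8 and S100a9 differed in which libraries held them. Mpo and the neighbours Prtn3 and Elane lie on mouse chromosomes 11 and 10, at chr11:87793581-87804413, chr10:79874476-79883174 and chr10:79886247-79888215 (GRCm38). The 120 bases before the RefSeq start of each gene are shown because Olfr160 library 3 was the highest of its group for each of the 3. They were taken from RefSeq (GRCm38.p6), whose starts lie inside these GENCODE gene spans, at chr11:87793664-87793783 (plus strand), chr10:79879547-79879666 (plus strand) and chr10:79886192-79886311 (plus strand). Capitals mark GAGGAA, a purine-rich word of the kind bound by Ets factors such as PU.1. It was searched on both strands and found in 23.3% of all 32851 RefSeq promoters over a window of 250 bases, and in 15 of 30 entries of the 36 genes, those of Mpo, Prtn3 and Elane among them.
Mpo: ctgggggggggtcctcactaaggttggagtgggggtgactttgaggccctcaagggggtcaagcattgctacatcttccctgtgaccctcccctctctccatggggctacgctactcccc
Prtn3: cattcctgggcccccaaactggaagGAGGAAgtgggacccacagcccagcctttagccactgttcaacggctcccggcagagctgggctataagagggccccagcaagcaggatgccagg
Elane: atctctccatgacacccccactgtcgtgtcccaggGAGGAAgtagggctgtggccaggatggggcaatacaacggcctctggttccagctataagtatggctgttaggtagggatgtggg
In these 120 bases the word lies 95 bases before the start of Prtn3 and 85 bases before that of Elane, and in the promoter of Mpo it lies 224 and 247 bases before the start, beyond the bases shown. A match of letters is a description and not a binding site.

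Mpo, the enzyme that makes hypochlorous acid, had 0 counts in each Olfr1507 library, 0, 1 and 0 in the Olfr73 libraries and 45, 162 and 538 in the Olfr160 libraries. Neutrophil elastase, Elane, had 0 counts in all Olfr1507 and all Olfr73 libraries and 0, 31 and 68 in the Olfr160 libraries. Proteinase 3, Prtn3, had 3, 2 and 0 counts in the Olfr1507 libraries, 3, 0 and 0 in the Olfr73 libraries and 13, 31 and 44 in the Olfr160 libraries. All 3 were thus detected above the floor in Olfr160 libraries 2 and 3, and library 3 was the highest for each. Olfr160 library 3 was the highest of its group for no other of the 36 genes.

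Against the floor of 3 counts over the group, Mpo was at least 244-fold lower in Olfr1507 than in Olfr160 and Elane at least 32.4-fold lower. Between Olfr73 and Olfr160 the pooled ratio was 718-fold lower for Mpo (95% exact counting interval 128 to 28400) and 28.3-fold lower for Prtn3 (9.36 to 140), and at least 31.8-fold lower for Elane. In edgeR Mpo passed the test between Olfr1507 and Olfr160 and between Olfr73 and Olfr160 (adjusted p 0.00145 and 0.00788), and so did Prtn3 (0.0301 and 0.0435), while Elane was not tested. Mpo and Prtn3 passed the low-count filter with the help of the Olfr160 libraries, so these calls are a description. The Prtn3 calls were lost under 6 and 11 of 21 alternatives, both without any single Olfr1507 or Olfr160 library and the second also without Olfr73 library 2 or 3. Between Olfr1507 and Olfr73 both groups were at or near the floor for these 3 genes.

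The later neutrophil genes were found in other libraries. Ngp (neutrophilic granule protein) stood at 0.162, 0.165 and 0.391 CPM in the Olfr1507 libraries, 52.0, 86.2 and 0.0932 CPM in the Olfr73 libraries and 6.31, 70.1 and 39.8 CPM in the Olfr160 libraries. Camp, the cathelicidin antimicrobial peptide, had 0 counts in each Olfr1507 library, 72, 52 and 0 in the Olfr73 libraries and 7, 80 and 35 in the Olfr160 libraries. Olfr73 libraries 1 and 2 therefore reached the Olfr160 level, whereas Olfr73 library 3, with 2 counts of Ngp and 0 of Camp, was at the level of Olfr1507.

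S100a8, which with S100a9 forms the calcium-binding protein calprotectin, had 0, 0 and 1 counts in the Olfr1507 libraries, 21, 16 and 0 in the Olfr73 libraries and 7, 64 and 14 in the Olfr160 libraries. S100a9 had 0, 1 and 0 counts in the Olfr1507 libraries, 23, 12 and 0 in the Olfr73 libraries and 10, 67 and 17 in the Olfr160 libraries. Both repeated the pattern of Ngp and Camp, with Olfr73 library 3 at 0 and Olfr160 library 2 highest. The 4 later genes were lower in Olfr1507 than in Olfr160 in edgeR (adjusted p 0.0107 for Ngp, 0.0248 for Camp, 0.0239 for S100a8 and 0.0157 for S100a9). Camp was at least 39.9-fold lower there. All 4 passed the low-count filter with the help of the Olfr160 libraries, so their calls against Olfr160 are a description. Between Olfr1507 and Olfr73 Ngp and Camp passed the test (0.0138 and 0.0325), Camp at least 42.1-fold lower, and S100a8 and S100a9 did not (0.0652 and 0.0527). That bound for Camp pools the libraries of a group, and Olfr73 library 3 was itself at 0 counts. Against Olfr160, the Camp and S100a8 calls were lost without any single Olfr1507 library and that of S100a9 without Olfr1507 library 1 or 3. All 3 were lost without Olfr160 library 2. Against Olfr73, the Ngp call was lost without Olfr1507 library 1 or 2. The Camp call there was lost without any single Olfr1507 library, Olfr73 library 1 or 2, or Olfr160 library 3.

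Between Olfr73 and Olfr160 none of the 4 passed the test, with log2 fold changes of 0.25 ± 1.24 for Ngp, 0.13 ± 1.41 for Camp, -1.08 ± 1.3 for S100a8 and -1.32 ± 1.23 for S100a9 (edgeR adjusted p 0.912, 0.963, 0.593 and 0.485). These errors are wide, with Olfr73 library 3 and Olfr160 library 1 far below the other libraries of their groups for Ngp and Camp, so the values do not show that the groups were alike. The sign of Ngp, Camp and S100a8 turned under some alternatives. Summed over the 3 primary-granule genes, the Olfr73 libraries held 0.132, 0.0468 and 0 CPM and the Olfr160 libraries 2.79, 9.06 and 28.9 CPM. Summed over the 4 later genes, the Olfr73 libraries held 57.1, 89.9 and 0.0932 CPM and the Olfr160 libraries 7.46, 78.6 and 42.8 CPM. Most of this sum was Ngp, with 52.0, 86.2 and 0.0932 CPM in the Olfr73 libraries and 6.31, 70.1 and 39.8 CPM in the Olfr160 libraries. Olfr73 libraries 1 and 2 thus carried the later neutrophil genes at the Olfr160 level with at most 3 counts of any primary-granule gene.

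Ltf, lactotransferrin, an iron-binding protein of neutrophil granules that gland epithelium also secretes, behaved differently from the other 7 genes. It stood at 1.78, 2.05 and 1.12 CPM in the Olfr1507 libraries, 95.5, 99.3 and 16.0 CPM in the Olfr73 libraries and 185.1, 211.8 and 56.9 CPM in the Olfr160 libraries. Olfr1507 lay below both other groups, and Olfr73 and Olfr160 overlapped. In Olfr73 library 3, where Ngp had 2 counts, Ltf kept 343 counts. Its log2 fold change was -6.49 ± 0.84 for Olfr1507 over Olfr160 and -5.38 ± 0.81 for Olfr1507 over Olfr73 (edgeR adjusted p 0.00031 and 0.00131), and the -1.11 ± 0.63 for Olfr73 over Olfr160 did not pass (0.251). Ltf held 82.7%, 58.9% and 72.8% of the summed CPM of the neutrophil genes in Olfr1507, Olfr73 and Olfr160, so a sum over the 8 genes follows Ltf first.

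Without Ltf, the neutrophil sum divided by the macrophage sum without Lyz2 was 4.07, 4.85 and 0.00467 in the Olfr73 libraries and 0.138, 0.955 and 1.50 in the Olfr160 libraries. Ngp was the largest part of the neutrophil sum in each of these libraries. The ratio of these CPM sums, which are not scaled for length, spanned a wide range within each group, and the Olfr73 range enclosed that of Olfr160. In Olfr1507 neither sum passed 0.447 CPM, and no ratio is given.

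**Figure D3:**
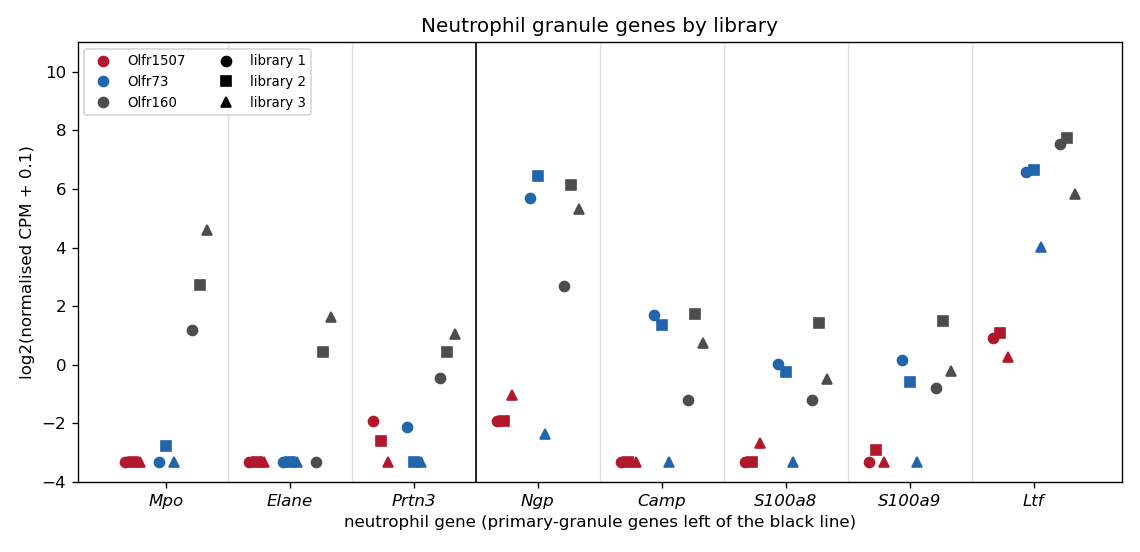
Level of 8 neutrophil genes in each library as log2 of normalised CPM plus 0.1, the 3 primary-granule genes left of the black line and, within each gene, Olfr1507 (red), Olfr73 (blue) and Olfr160 (grey) from left to right; circles, squares and triangles are libraries 1, 2 and 3, and the lowest position is 0 counts. The blue triangle of Olfr73 library 3 is at 0 or 2 counts for Ngp, Camp, S100a8 and S100a9 but at 16.0 CPM for Ltf, and Olfr160 library 3 leads for Mpo, Elane and Prtn3.

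Further neutrophil genes did not share 1 order of libraries. Of a list of 17 further genes of mature granulocytes, 11 were tested, and 10 were lower in Olfr1507 than in Olfr160, 5 lower in Olfr1507 than in Olfr73 (Chil3, Il1b, Cd177, Hp and Pglyrp1) and 2 lower in Olfr73 than in Olfr160 (Mmp8 and Anxa3), with 0 higher. Chil3, a chitinase-like secreted protein and 1 of the 2 most abundant genes of that list, had 0, 2 and 1 counts in the Olfr1507 libraries, 453, 599 and 0 in the Olfr73 libraries and 53, 405 and 260 in the Olfr160 libraries, the order seen for Ngp. The other, the peptidoglycan-binding protein Pglyrp1, had 0, 5 and 0 counts in the Olfr1507 libraries, 42, 35 and 7 in the Olfr73 libraries and 137, 111 and 48 in the Olfr160 libraries, nearer to the order of Ltf. Both were lower in Olfr1507 than in Olfr160 (edgeR adjusted p 0.0114 for Chil3 and 0.00323 for Pglyrp1) and than in Olfr73 (0.0121 and 0.0204). Neither passed between Olfr73 and Olfr160 (0.752 and 0.21). Mmp8, Chil3 and Pglyrp1 passed the low-count filter with the help of the Olfr160 libraries, so their calls against Olfr160 are a description.

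A list of 10 further genes of immature granulocytes held 4 tested genes, of which Csf3r, the receptor for granulocyte growth factor, and Myb were lower and Hdc higher in Olfr1507 than in either other group, and Myb lower in Olfr73 than in Olfr160. Hdc makes histamine, and its log2 fold change was 0.68 ± 0.13 against Olfr160 and 0.40 ± 0.13 against Olfr73 (edgeR adjusted p 0.00276 and 0.0421). Its 1628 to 2602 counts in the Olfr1507 libraries, 1330 to 1769 in the Olfr73 libraries and 1186 to 1397 in the Olfr160 libraries did not follow the blood genes. The progenitor transcription factor Myb had 1, 1 and 2 counts in the Olfr1507 libraries, 24, 33 and 30 in the Olfr73 libraries and 191, 94 and 164 in the Olfr160 libraries. It was lower in Olfr73 than in Olfr160 (log2 fold change -2.34 ± 0.49, edgeR adjusted p 0.014). Cathepsin G, Ctsg, and Ms4a3, named after their values were seen because they belong with Mpo and Elane, had 0 counts in all Olfr1507 and Olfr73 libraries, and 1, 6 and 18 counts and 1, 9 and 9 counts in the Olfr160 libraries. Nkg7 (1, 4 and 3 in Olfr160) and Cebpe (0, 0 and 1) were also at 0 elsewhere. Other genes of the list did not share this. Fcnb had 0, 4 and 0 counts in Olfr73 and 0, 1 and 6 in Olfr160. Cebpa had 15, 29 and 16 counts in Olfr1507, 11, 6 and 28 in Olfr73 and 16, 10 and 15 in Olfr160. Gfi1 had 0 counts throughout.

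Lymphocyte genes were the scarcest of the 6 groups, with a summed level of 0.106 ± 0.140 CPM in Olfr1507, 1.34 ± 0.396 in Olfr73 and 3.49 ± 3.69 in Olfr160 (mean ± SD, n = 3). Cd79a, a signalling chain of the B cell receptor, had 0 counts in each Olfr1507 library, 18, 19 and 9 in the Olfr73 libraries and 32, 108 and 2 in the Olfr160 libraries. Its partner Cd79b had 0, 5 and 0 counts in the Olfr1507 libraries, 2, 14 and 13 in the Olfr73 libraries and 16, 75 and 2 in the Olfr160 libraries. For both, Olfr160 library 2 was highest and Olfr160 library 3 had 2 counts, no more than any Olfr73 library. Both were lower in Olfr1507 than in Olfr160 (edgeR adjusted p 0.00883 and 0.0489), Cd79a at least 46.5-fold. Both passed the low-count filter with the help of the Olfr160 libraries, so these calls are a description. Cd79a was also at least 15.6-fold lower in Olfr1507 than in Olfr73 (edgeR adjusted p 0.027), a call lost without any single Olfr1507 library and without Olfr73 library 1 or 2. The Cd79b call was lost without Olfr1507 library 1 or 3, Olfr73 library 2 or 3, or Olfr160 library 1 or 2. Of the Cd79a transcript's 31-base words 12.2% recur in the gene model Gm32220.

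Cd3e, a chain of the T cell receptor complex, had 1, 3 and 0 counts in the Olfr1507 libraries, 0, 0 and 12 in the Olfr73 libraries and 8, 3 and 2 in the Olfr160 libraries, and was not tested. Olfr73 library 3, which had 0 counts of Camp, S100a8 and S100a9, had the most Cd3e. Among 18 further B cell genes 9 were tested, with 8 lower in Olfr1507 than in Olfr160, 5 lower in Olfr1507 than in Olfr73 (among them Ighm, Vpreb3, Blnk and Spib) and 2 lower in Olfr73 than in Olfr160 (Blnk and Spib), and 0 higher. Genes such as Spib and Vpreb3 passed the low-count filter with the help of the Olfr160 libraries, so their calls against Olfr160 are a description. Igkc, the antibody kappa constant region and 1 of the 2 most abundant genes of that list by TPM, had 0, 1 and 0 counts in the Olfr1507 libraries, 4, 0 and 2 in the Olfr73 libraries and 32, 559 and 2 in the Olfr160 libraries. Nearly all of it lay in Olfr160 library 2, and it was not tested. The other, the transcription factor Ebf1, is also a factor of olfactory neurons, and its 3193 to 9943 counts per library did not differ between groups past the test (edgeR adjusted p 0.347, 0.818 and 0.577). Of 19 further T and NK cell genes 4 were tested, with 1 lower and 0 higher in Olfr1507 than in either other group. This 1 of 4 is near the share of all genes lower, 27.7% against Olfr160 and 19.9% against Olfr73. The T cell kinase Lck was lower in Olfr1507 than in Olfr160 and than in Olfr73 (edgeR adjusted p 0.0159 and 0.0423), and the cytokine receptor Il7r passed in neither (0.113 and 0.0897). The kinase Zap70, named after its values were seen, had 44, 33 and 18 counts in the Olfr1507 libraries, 14, 0 and 18 in the Olfr73 libraries and 12, 25 and 1 in the Olfr160 libraries. Its log2 fold changes of 1.44 ± 1.25 for Olfr1507 over Olfr160 and 1.60 ± 1.25 for Olfr1507 over Olfr73 were positive and did not pass the test (edgeR adjusted p 0.364 and 0.342).

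The genes that mark leukocytes in general repeated the order of the groups at low levels. Ptprc, the phosphatase CD45 found on all white blood cells, had 7, 6 and 7 counts in the Olfr1507 libraries, 13, 39 and 124 in the Olfr73 libraries and 197, 335 and 124 in the Olfr160 libraries. Olfr1507 lay below both other groups, and Olfr73 library 3 had as many counts as Olfr160 library 3. Ptprc was lower in Olfr1507 than in Olfr160 (log2 fold change -4.89 ± 0.86, edgeR adjusted p 0.00168) and than in Olfr73 (-3.09 ± 0.82, 0.0179). The second call was lost without any single Olfr1507 library, and Ptprc did not pass between Olfr73 and Olfr160 (-1.80 ± 0.73, 0.116). Laptm5, a lysosomal membrane protein of blood cells, passed all 3 comparisons at -6.25 ± 0.60, -3.60 ± 0.56 and -2.65 ± 0.48 (edgeR adjusted p 5.83e-05, 0.00155 and 0.00832). The integrin beta chain Itgb2 was lower in Olfr1507 than in Olfr160 and than in Olfr73 (-4.62 ± 0.97 and -3.35 ± 0.94, edgeR adjusted p 0.00426 and 0.0226), the second lost without Olfr1507 library 2. Cd52, a small surface glycoprotein of leukocytes, had 0 counts in each Olfr1507 library, 5, 2 and 1 in the Olfr73 libraries and 12, 21 and 3 in the Olfr160 libraries, and was not tested.

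Coro1a, the actin-binding protein coronin 1A, changed least of the 30 tested genes between Olfr1507 and Olfr160. It stood at 2.54, 1.68 and 4.24 CPM in the Olfr1507 libraries, 8.15, 6.70 and 4.85 CPM in the Olfr73 libraries and 15.9, 27.3 and 9.83 CPM in the Olfr160 libraries. The groups did not overlap. The log2 fold change was -2.66 ± 0.47 for Olfr1507 over Olfr160 (edgeR adjusted p 0.00166). Neither -1.23 ± 0.45 for Olfr1507 over Olfr73 nor -1.43 ± 0.44 for Olfr73 over Olfr160 passed (0.0608 and 0.0531). Coro1a, Cd74, H2-Ab1, Ltf, Hba-a1 and Hbb-bs were the 6 tested genes that reached 0.475 CPM in all 3 Olfr1507 libraries, and 9 of the 36 genes had 0 counts in all 3.

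Globin genes held the first 2 ranks of the 36 genes per length in the mean of every group. In TPM, the length-scaled unit of the authors, Hbb-bs stood at 32.6 ± 21.7 in Olfr1507, 144.6 ± 168.1 in Olfr73 and 1521 ± 1248 in Olfr160 (mean ± SD, n = 3), and Hba-a2 came second at 27.0, 142.2 and 1385 TPM. In the Olfr73 libraries Hbb-bs stood at 337.3, 67.8 and 28.6 TPM, and without library 1 the mean of Olfr73 was 92.1 TPM for Ngp and 79.1 TPM for Cd74, above 65.0 TPM for Hba-a2 and 48.2 TPM for Hbb-bs. The alpha genes Hba-a1 and Hba-a2 lie 12023 bases apart on chromosome 11, at chr11:32283511-32284465 and chr11:32296489-32297298, and the beta genes Hbb-bt and Hbb-bs 12537 bases apart on chromosome 7, at chr7:103812524-103813996 and chr7:103826534-103828096 (GRCm38). The 120 bases before the RefSeq start of each are shown because the 4 genes moved together. They come from RefSeq (GRCm38.p6), whose starts differ from the ends of these GENCODE gene spans, at chr11:32283552-32283671 and chr11:32296372-32296491 on the plus strand and chr7:103827929-103828048 and chr7:103813924-103814043 on the minus strand. Capitals mark CCAAT, the word of the CCAAT box of globin promoters, on either strand (ATTGG on the other), and CCACACC, a word of the CACC box bound by Klf1. They were found in 33.8% and 6.52% of all RefSeq promoters over 250 bases.
Hba-a1: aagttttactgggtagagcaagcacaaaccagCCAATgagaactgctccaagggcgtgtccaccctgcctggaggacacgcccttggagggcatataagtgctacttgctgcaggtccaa
Hba-a2: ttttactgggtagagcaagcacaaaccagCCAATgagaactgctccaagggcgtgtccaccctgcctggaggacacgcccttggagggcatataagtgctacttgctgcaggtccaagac
Hbb-bs: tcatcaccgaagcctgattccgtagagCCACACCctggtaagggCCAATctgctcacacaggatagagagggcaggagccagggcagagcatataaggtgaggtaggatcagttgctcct
Hbb-bt: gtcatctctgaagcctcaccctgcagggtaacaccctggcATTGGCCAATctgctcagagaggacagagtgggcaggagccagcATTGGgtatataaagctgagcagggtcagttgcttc
CCAAT lies 75 to 91 bases before the start of each, Hbb-bt holds it on the opposite strand at 80 and 36 bases as well, and CCACACC lies 93 bases before Hbb-bs. Over the compared window the alpha promoters were equal at 247 of 247 bases, offset by 3, and the beta promoters at 127 of 249.

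The transcripts of the copies are also alike: 75.5% of the 31-base words of Hba-a1 and 92.6% of those of Hba-a2 occur in another gene, as do 54.4% of Hbb-bs and 59.4% of Hbb-bt. The split of reads between copies is therefore uncertain, and the alpha and the beta pair are best read as sums. The alpha pair summed to 2.27, 5.94 and 1.06 CPM in the Olfr1507 libraries, 27.2, 12.5 and 3.82 CPM in the Olfr73 libraries and 113.4, 249.1 and 42.2 CPM in the Olfr160 libraries. The beta pair summed to 2.48, 5.45 and 1.51 CPM in the Olfr1507 libraries, 25.8, 7.73 and 2.05 CPM in the Olfr73 libraries and 131.7, 288.9 and 32.4 CPM in the Olfr160 libraries. The pairs kept the same order of libraries within every group, with library 2 highest in Olfr1507 and Olfr160 and library 1 in Olfr73. Olfr73 library 3 fell within the range of Olfr1507. The ratio of alpha to beta ran from 0.704 to 1.09 in Olfr1507, 1.05 to 1.86 in Olfr73 and 0.861 to 1.3 in Olfr160, so the ranges overlapped.

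All 4 globin genes were lower in Olfr1507 than in Olfr160, with log2 fold changes of -5.28 to -5.53 (edgeR adjusted p 0.00171 to 0.00311), and lower in Olfr73 than in Olfr160, at -3.18 to -4.42 (0.0197 to 0.0348). None passed between Olfr1507 and Olfr73, at -1.10 to -2.20 (0.0803 to 0.424), where the macrophage genes had passed 9 of 9. Every globin call between Olfr73 and Olfr160 was lost without Olfr73 library 2 and without Olfr160 library 2. Those of Hba-a1, Hba-a2 and Hbb-bs were lost also without Olfr73 library 3 and without Olfr160 library 1, and that of Hbb-bs without Olfr1507 library 1. The 3 libraries of Olfr73 lay below the 3 of Olfr160 for each gene, a description given without the share of all genes that separate so.

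Of 26 further genes of red cell maturation 11 were tested, of which 7 were lower and 2 higher in Olfr1507 than in Olfr160, and 4 lower and 2 higher in Olfr1507 than in Olfr73. In Olfr73 2 were lower and 1 was higher than in Olfr160. The higher ones in Olfr1507 were Bpgm and Tmcc2. The lower ones included Slc4a1, Slc25a37 and Ank1 in Olfr1507 against Olfr73 and Fech in Olfr73 against Olfr160. Bpgm, the enzyme that makes the haemoglobin ligand bisphosphoglycerate, was 1 of the 2 most abundant of the list and did not follow the globins. It had 2648 to 4087 counts in the Olfr1507 libraries, 2273 to 2720 in the Olfr73 libraries and 2313 to 3008 in the Olfr160 libraries. Alas2, the haem-synthesis enzyme of developing red cells, named after its values were seen, had 7.09, 13 and 2 counts in the Olfr1507 libraries, 197, 71 and 0 in the Olfr73 libraries and 299, 886 and 156 in the Olfr160 libraries. It kept the order of the globins and was lower in Olfr1507 than in Olfr160 (edgeR adjusted p 0.00871), but passed neither between Olfr1507 and Olfr73 nor between Olfr73 and Olfr160 (0.0636 and 0.208). The embryonic globins Hbb-y, Hbb-bh1 and Hba-x had 0 counts in all 9 libraries.

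**Figure D4:**
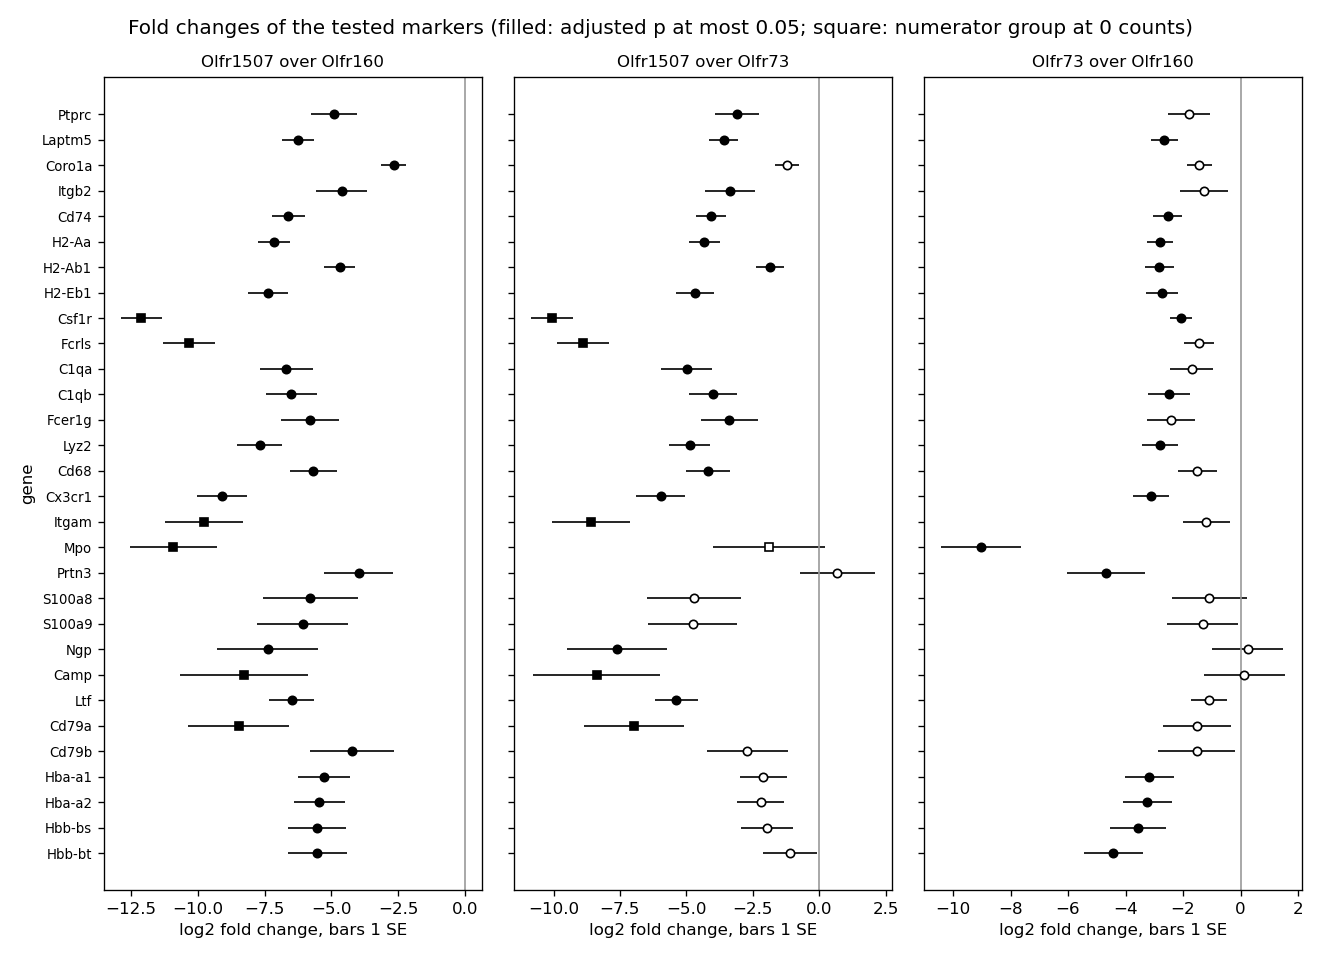
Log2 fold change with 1 SE of the 30 tested genes in the 3 comparisons, Olfr1507 over Olfr160, Olfr1507 over Olfr73 and Olfr73 over Olfr160, from left to right; filled symbols have an adjusted p of at most 0.05, and squares mark genes with 0 counts in the first-named group, whose fitted value has no fixed size. All 30 lie below 0 and are filled in the left panel, 20 are filled in the middle panel, where the 4 globins are open, and 15 in the right panel, where the class II genes and the globins are filled and Ngp and Camp lie at 0.25 and 0.13.

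Of 25 further macrophage and monocyte genes 20 were tested, and 17 were lower in Olfr1507 than in Olfr160, 6 lower and 1 higher in Olfr1507 than in Olfr73 and 4 (among them Cd14, Ctss and Fcgr3) lower in Olfr73 than in Olfr160. Ctss, the lysosomal protease cathepsin S, had 0, 11 and 2 counts in the Olfr1507 libraries, 118, 49 and 67 in the Olfr73 libraries and 512, 663 and 303 in the Olfr160 libraries, fully separate and called in every comparison (edgeR adjusted p 0.000136, 0.00238 and 0.018). Of the 12 antigen-presentation and dendritic cell genes 7 were tested, with 6 lower in Olfr1507 than in Olfr160, 2 (H2-DMa and H2-DMb1) lower in Olfr1507 than in Olfr73 and 1 (Cd209a) lower in Olfr73 than in Olfr160, and 1, Zbtb46, higher in Olfr1507 than in Olfr160 (edgeR adjusted p 0.00651). The 2 of 7 and 1 of 7 are near the 19.9% and 10.5% of all genes lower in those comparisons. Fcgr3 and Cd209a passed the low-count filter with the help of the Olfr160 libraries, so their calls against Olfr160 are a description.

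Of 12 mast cell and basophil genes 5 (Cpa3, Mcpt4, Cma1, Ms4a2 and Prss34) had 0 counts in all 9 libraries. Kit, a receptor that epithelial stem cells of the nose also carry, was the only tested one, and it was lower in Olfr1507 than in both other groups and lower in Olfr73 than in Olfr160 (edgeR adjusted p 0.000176, 0.00439 and 0.0174). Prg2, the major basic protein of eosinophils, had 4 counts in Olfr1507 library 2, 20 in Olfr160 library 2 and 0 elsewhere. Of 10 platelet and megakaryocyte genes the integrin chain Itga2b alone was tested, and it was lower in Olfr1507 than in Olfr160 and than in Olfr73 (edgeR adjusted p 0.000572 and 0.00859). The platelet chemokine Pf4 had 4 counts in Olfr73 library 1, 3 in Olfr160 library 1 and 0 elsewhere.

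The calls of 4 kinds of blood cell are set side by side here. Macrophage genes had 9 of 9 calls between Olfr1507 and Olfr73 and 4 of 9 between Olfr73 and Olfr160, and neutrophil genes 3 of 7 and 2 of 7. Lymphocyte genes had 1 of 2 and 0 of 2, and red cell genes 0 of 4 and 4 of 4. Of all genes, 19.9% and 10.5% were lower in these comparisons, and counts out of so few genes are a description. Whether these kinds differ from each other in their change was not tested. Within Olfr73, library 1 was the highest for 18 of the 36 genes, among them the 4 globins, library 2 for 9, and library 3 for 8, which were Ptprc, Cd74, Fcrls, C1qa, Tyrobp, Aif1, Cx3cr1 and Cd3e. Olfr73 library 3 had the lowest summed level of the neutrophil genes and of the globins in its group. The sum of the 12 macrophage genes was also lowest there, at 31.55 CPM beside 65.17 and 53.24 CPM in libraries 1 and 2. Without Lyz2 that sum was highest in library 3, at 19.94 CPM beside 14.05 and 18.54 CPM. Within Olfr160, library 2 was highest for 29 genes and library 3, which held the largest share of its tagged receptor, for 3.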

How the data were processed

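Per the submitters' processing notes, reads were processed with STAR 2.6.1, RSEM 1.3.1 and DESeq2 (no version given) with the build mm10; the annotation release is not given in the sources used here. Expected counts from RSEM were deposited by the authors for each gene, not normalised (4.06% to 5.54% of a library's values were not whole), and the authors' TPM, scaled for length and depth. Columns carry older receptor names and were matched to groups through RefSeq synonyms. The table held 55291 genes.

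The counts, rounded to whole numbers, went into edgeR 4.0.16 (R 4.3.3): filterByExpr by group, TMM, and a robust quasi-likelihood test with a means model on all 9 libraries, with Benjamini-Hochberg adjustment over 16399 genes. The SE is the log2 fold change divided by the square root of F. CPM are counts over the effective library size. A group at 0 counts was set to 3 counts for a bound; with 1 to 3 counts an exact 95% interval is given, which, as the floors do, covers counting error only. Alternatives used DESeq2 1.42.0 and limma 3.58.1; tables and figures used Python 3.11.15, pandas 2.3.3, numpy 2.4.6, scipy 1.17.1 and matplotlib 3.10.9.

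The 36 genes and all lists were chosen with earlier results of these data known. The text names the 36 genes, the 2 most abundant genes by mean TPM of each of 9 further blood cell lists (149 genes in the table), genes that account for small counts, and Omp; a few genes of the further lists are not reported here. Sums without Lyz2 or Ltf were added after seeing the data. Promoters came from RefSeq (28 of 36 genes had an entry), and coordinates from GENCODE M21 (GRCm38). Shared sequence is the percentage of a gene's 31-base words also found in transcripts of other genes.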

Additional observations from a re-analysis of the deposited data

How the results depend on the processing

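The counts of genes called were 30 between Olfr1507 and Olfr160, 20 between Olfr1507 and Olfr73 and 15 between Olfr73 and Olfr160. Leaving out 1 library at a time gave 25 to 34, 13 to 23 and 6 to 14. A filter of 5 CPM in 3 libraries gave 17 in the first comparison, where it left 17 genes. In the second, limma-voom gave 9 and an adjusted p of 0.01 gave 13, and in the third that threshold gave 4. DESeq2 gave 34, 23 and 20. The labels do not say what the replicate numbers mark. Correlations of same-numbered libraries ran from -0.193 to 0.13 and those of other pairs between groups from -0.114 to 0.108. These showed no clear pairing, but with 3 libraries per group they cannot exclude one. With the replicate block the counts were 29, 20 and 15.

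The 90 fitted values of single genes were recomputed under the alternatives. Of 1927 recomputed values, 19 had another sign, and neither they nor their main values passed the test. For Ngp, Olfr73 over Olfr160, these were -0.34 with scaling to the olfactory transduction list, -1.72 with limma-voom, -1.02 and -1.66 with TPM, and -0.60 to 0.99 over the runs without 1 library. For Camp they were -0.46, -1.16, -0.41 and -1.34 in the same order, -0.48 with the replicate block, and -0.49 to 0.97 over the runs without 1 library. Without 1 library, S100a8 ran from -1.65 to 0.21 and Cd79b from -2.07 to 0.06 in that comparison. For Olfr1507 over Olfr73, Prtn3 stood at -0.11 with the transduction scaling, and without 1 library it ran from -0.22 to 3.85 and Mpo from -2.36 to 0.00. That scaling put the median of all genes at -1.74, -1.02 and -0.732, and library size alone at -0.56, -0.469 and -0.119. Genes under about 10 counts per library were at the limit of depth.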
